A study of Homo sapiens with 18 samples.

Results

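The 10 genes described here encode the main chaperones and folding enzymes of the endoplasmic reticulum (ER). The group was defined by name and function, with no cut on a value of this study, but with earlier results of these data known. They are HSPA5, HSP90B1 and DNAJB11, the lectins CALR and CANX, the disulfide isomerases PDIA3, P4HB, PDIA4 and PDIA6, and the prolyl isomerase PPIB. Each was followed through 1 transcript entry, out of 26679 entries in each footprint table and 98334 in each mRNA table. All 10 entries were found, all kept a listed length shorter than the protein by the same trim, 20 codons in the footprint tables and 19 in the mRNA tables, and all 10 passed the filter on low counts in every comparison. The entries were ENST00000324460 for HSPA5, ENST00000299767 for HSP90B1, ENST00000265028 for DNAJB11, ENST00000316448 for CALR, ENST00000247461 for CANX, ENST00000300289 for PDIA3, ENST00000331483 for P4HB, ENST00000286091 for PDIA4, ENST00000272227 for PDIA6 and ENST00000300026 for PPIB.

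The samples were 3 lines of HEK293, a human embryonic kidney line grown in DMEM with serum. UFM1-KO was a clonal line made by Cas9 editing with a guide against UFM1, a small modifier related to ubiquitin that is joined to the ribosomal protein RPL26 on ribosomes at the ER membrane. UFSP2-KO was a clonal line edited with Cas9 at UFSP2, a protease that removes UFM1 from the proteins that carry it, and WT was the unedited line. Ribosome footprints were sequenced from the membrane fraction, a Triton lysate of what digitonin had left, and from the cytosolic fraction, the digitonin lysate itself. mRNA was sequenced from Triton lysates of whole cells after removal of ribosomal RNA. Each of these 9 groups had 2 libraries, a and b, which the labels do not describe as separate cultures, so a p-value here measures the spread between libraries, which may be technical. For each gene the spread was estimated over all libraries fitted together, 12 for the footprints. Tests of membrane footprints therefore also carry the spread of the cytosolic libraries. Each knockout was 1 clonal line, and a knockout's effect cannot be told apart from other differences between clones. The transcripts of UFM1 and UFSP2 were not looked up, so the counts do not check the knockouts.

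Secreted and membrane proteins enter the ER while they are being made, and this group of proteins receives them there. BiP, the product of HSPA5, is the HSP70 chaperone of the lumen and the DNAJB11 product is a J-domain partner that brings clients to it, while HSP90B1 encodes the lumenal HSP90, GRP94. Calreticulin, from CALR, and calnexin, from CANX, bind glycoproteins by their sugar. Calreticulin is soluble and calnexin is a membrane protein with its lectin domain in the lumen, so CANX is in the group by function and not as a lumenal protein. The PDIA3 product forms disulfide bonds on glycoproteins held by both lectins, P4HB encodes protein disulfide isomerase itself, which is also a subunit of collagen prolyl hydroxylase, and PDIA4 and PDIA6 encode further members of that family. Cyclophilin B, from PPIB, speeds the turning of proline bonds. Many of these genes are known targets of the unfolded protein response, which acts through the ER stress response element (ERSE) in their promoters.

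The ERSE was searched for in the 250 bases before the RefSeq start sites of 9 of the 10 genes on GRCh38.p14, 14 windows in all because CANX, PDIA4 and PDIA6 have several starts, and PDIA3 was not among them. The motif was CCAAT, 9 bases of any kind and CCACG, on either strand, and 5 of the 9 genes held it. Of all 35116 promoter windows of this length in the table, 26 held it, which is 0.074%. That share is over single windows, those of these genes included, whereas a gene counted if any of its windows held the motif. The variant ERSE-II, ATTGG, 1 base of any kind and CCACG on either strand, was in 0 of the 9 genes and in 18 windows of the table, 0.0513%. The matches are shown because they are an element by which many of these genes are known to be induced. The fixed letters of the motif and its 9 free bases are all in capitals, each written on the gene's strand:
HSPA5: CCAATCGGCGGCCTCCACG
HSP90B1, farther from the start: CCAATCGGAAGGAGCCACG
HSP90B1, nearer to the start: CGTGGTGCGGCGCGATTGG
CALR: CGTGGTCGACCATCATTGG
CANX: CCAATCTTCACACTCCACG
PDIA6: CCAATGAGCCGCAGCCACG
The nearer HSP90B1 match and the CALR match read in the opposite direction to the others. The HSPA5 match lay 66 to 48 bases before the start, the HSP90B1 matches 194 to 176 and 89 to 71 bases before it, and the CALR match 225 to 207 bases before it. CANX held 1 match that falls in 2 of its windows, 151 to 133 bases before the start of the first and 189 to 171 before that of another, and PDIA6 held its match 86 to 68 bases before 1 of its 2 starts. P4HB, PDIA4, DNAJB11 and PPIB had no match in these windows, which says only that these letters are not there. The whole windows of HSPA5, CALR and DNAJB11 are given because the expression results below turn on CALR and DNAJB11, and HSPA5 is the textbook target of the pathway. They lie upstream of the gene on chr9:125241344-125241593 (minus strand), chr19:12938359-12938608 (plus strand) and chr3:186570470-186570719 (plus strand) of GRCh38.p14, with the ERSE in capitals where there is one:
HSPA5: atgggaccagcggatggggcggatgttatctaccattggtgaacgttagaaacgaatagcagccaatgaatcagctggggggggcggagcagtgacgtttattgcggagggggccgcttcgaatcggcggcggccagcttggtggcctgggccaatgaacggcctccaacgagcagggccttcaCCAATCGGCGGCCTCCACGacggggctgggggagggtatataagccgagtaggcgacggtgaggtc
CALR: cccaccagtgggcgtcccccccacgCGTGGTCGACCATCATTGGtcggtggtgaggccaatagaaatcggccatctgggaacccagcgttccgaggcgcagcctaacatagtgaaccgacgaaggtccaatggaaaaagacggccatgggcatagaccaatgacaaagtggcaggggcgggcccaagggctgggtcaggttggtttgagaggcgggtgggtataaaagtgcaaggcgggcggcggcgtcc
DNAJB11: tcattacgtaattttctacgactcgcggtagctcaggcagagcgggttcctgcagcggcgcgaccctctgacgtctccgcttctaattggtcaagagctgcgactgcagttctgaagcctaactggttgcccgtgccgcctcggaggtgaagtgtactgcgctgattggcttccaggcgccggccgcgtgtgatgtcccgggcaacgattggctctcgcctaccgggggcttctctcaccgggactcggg
A match is a description of the sequence, and no factor binding was measured in these samples.

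Footprints of all 10 genes took a far larger share of the membrane libraries than of the cytosolic libraries, in every line. In counts, the deposited tables totalled 2848544 to 11388755 in the membrane libraries, 1393032 to 6666021 in the cytosolic libraries and 37451244 to 68675420 in the mRNA libraries. Together the 10 genes took 1.96% ± 0.16 of the membrane counts in UFM1-KO, 2.17% ± 0.16 in UFSP2-KO and 1.81% ± 0.02 in WT (SD, n = 2 libraries each). In the cytosolic libraries they took 0.0119% ± 0.003 in UFM1-KO, 0.0145% ± 0.0092 in UFSP2-KO and 0.012% ± 0.0098 in WT, and the libraries marked a were above those marked b in each line. These shares are of counts after entries with identical counts had been merged and low counts filtered out, not of the deposited totals.

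By gene, the cytosolic counts were low throughout, from 0 to 74 in a library. BiP footprints, for example, numbered 15814 in the membrane libraries and 26 in the cytosolic libraries of UFM1-KO, 11180 and 42 in UFSP2-KO, and 21393 and 28 in WT. On the log2 scale, membrane over cytosol in the footprints of HSPA5 was 8.12 ± 0.42 in UFM1-KO, 8.09 ± 0.41 in UFSP2-KO and 8.53 ± 0.43 in WT (SE of the fit). The lowest ratio of the group in WT was that of PPIB, 6.50 ± 0.32, and the highest that of CALR, 8.74 ± 0.41. In UFSP2-KO the ratios went from 6.81 for P4HB to 8.42 for CALR, and in UFM1-KO from 7.32 for HSP90B1 to 9.51 for DNAJB11. The last value rests on 1 cytosolic count: DNAJB11 had 1807 membrane and 1 cytosolic counts in UFM1-KO, 1624 and 8 in UFSP2-KO, against 2314 and 3 in WT. Scaled to library size, the DNAJB11 ratio was 855 in UFM1-KO (exact 95% interval 153 to 33776), 215 in UFSP2-KO (109 to 499) and 429 in WT (147 to 2081), intervals that cover counting error only. A count of 0 in UFM1-KO library a and in WT library b allows up to 2.06 and 0.69 CPM of DNAJB11 in them, where CPM is the count scaled to a common library size.

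The median log2 ratio of the 10 genes was 7.70 in UFM1-KO, 7.54 in UFSP2-KO and 7.96 in WT, against medians over all 11065 features tested of 0.02, 0.01 and -0.02. All 10 were called higher in the membrane fraction in each line by the quasi-likelihood test of edgeR at a Benjamini-Hochberg adjusted p under 0.05, with the highest adjusted p of the group 1.65e-12 in UFM1-KO, 1.54e-12 in UFSP2-KO and 8.17e-13 in WT. The same test called 28.9% of all features in UFM1-KO, 36.9% in UFSP2-KO and 37.5% in WT, in either direction. A CPM is relative to its own fraction, so these ratios do not give the share of a gene's ribosomes at the membrane.

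**Figure D1:**
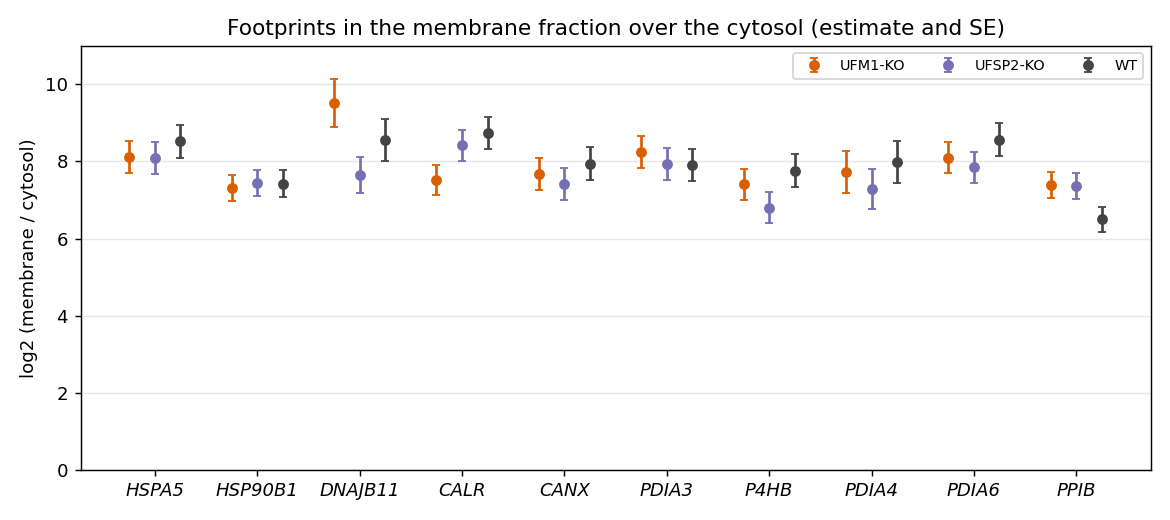
Footprints in the membrane fraction over the cytosol for the 10 genes, as the log2 ratio of the edgeR fit (vertical axis) in UFM1-KO, UFSP2-KO and WT; points are estimates and bars are SE, from 2 libraries of each fraction per line. All points lie between 6.50 (PPIB in WT) and 9.51 (DNAJB11 in UFM1-KO, which rests on 1 cytosolic count).

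No change of these ratios between a knockout line and WT was called for any of the 10 genes. In UFM1-KO less WT the change of the log2 ratio had a median of -0.26 over the group, with 3 genes above 0 and 7 below, and 0 genes were called, against 0.00904% of all features. The sign of that median was not stable: it was 0.07 by DESeq2, 0.06 without UFM1-KO cytosolic library a, 1.01 without WT cytosolic library b and -1.31 without WT cytosolic library a. Only CALR had an unadjusted p under 0.05, against 4.87% of all features, with a change of -1.22 ± 0.55 (SE; edgeR adjusted p = 0.965). In UFSP2-KO less WT the median was -0.48, with 3 genes above 0, of which PPIB alone stayed above 0 under the other scalings, and 0 genes were called, against 0.00904% of all features; 0 of the 10 had an unadjusted p under 0.05, against 4.4%. That median was 0.21 without UFSP2-KO cytosolic library a, -1.38 without library b, -1.37 without WT cytosolic library a and 1.02 without library b. PPIB was on the positive side in both, at 0.88 ± 0.45 for UFM1-KO and 0.85 ± 0.45 for UFSP2-KO. Both changes share the WT libraries, where PPIB had 19 cytosolic counts in library a and 70 in library b.

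The cytosolic values were the less precise ones. A gene's CPM differed between the replicates of a cytosolic group by a median of 2.98-fold, and by up to 21.7-fold for PDIA4 in WT, with 15 counts in library a and 3 in the deeper library b. In the membrane fraction replicates differed by 1.30-fold at most and by a median of 1.09-fold. Among cytosolic footprints, 0 of the 10 genes were called in UFM1-KO over WT, where 0.85% of all features were, and 0 in UFSP2-KO over WT, where 3.99% were; in both, 0 of the 10 had an unadjusted p under 0.05, against 11.4% and 19.0% of all features. The medians over the 10 genes, 0.27 in UFM1-KO over WT and 0.65 in UFSP2-KO over WT, turned with the WT library left out. Without WT library a they were 1.57 and 1.60, and without WT library b -0.74 and -0.61.

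Per length, the group ranked among the most translated entries of the membrane fraction, between 24th and 839th of 11065. Levels are given as RPKM, which is CPM divided by the listed coding length in kilobases. In WT membrane footprints the order was CALR at 3483 ± 138, PPIB at 2624 ± 270, CANX at 1420 ± 123, P4HB at 1345 ± 5, PDIA3 at 1226 ± 5, HSPA5 at 1189 ± 55, HSP90B1 at 1136 ± 148, PDIA6 at 1029 ± 15, PDIA4 at 533 ± 12 and DNAJB11 at 231 ± 19 RPKM (SD, n = 2). Of the neighbours from CANX to PDIA6, P4HB and PDIA3 differed by more than their spread and the others did not, while CALR and PPIB were above them and PDIA4 and DNAJB11 below them in both WT libraries. Footprints of DNAJB11, the co-chaperone, were the lowest of the group per length in each line.

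The order at the top differed between the lines. CALR was first in UFSP2-KO too, at 5229 ± 225 RPKM, before PPIB at 3158 ± 266 and HSP90B1 at 1571 ± 244. In UFM1-KO, PPIB came first at 3328 ± 107, before CALR at 2265 ± 90 and CANX at 2153 ± 286, and the spread of CANX covers the gap between the lectins.

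The mRNA levels had the same genes at the top and another order in the middle. In WT mRNA, CALR led at 739 ± 66 RPKM, then PPIB at 553 ± 40, CANX at 456 ± 51 and P4HB at 398 ± 10, and HSPA5 was ninth of the 10 at 111 ± 39, next to DNAJB11 at 104 ± 23. The mRNA ranks of the group went from 197th to 1538th of 13889 features. HSPA5 had the most footprints per mRNA of the 10 genes, a ratio of membrane to mRNA RPKM of 6.41 in UFM1-KO, 10.6 in UFSP2-KO and 10.7 in WT, although the UFM1-KO value was 4.44 with mRNA library a alone and 11.5 with library b alone. DNAJB11 had the fewest, 1.71, 2.03 and 2.23 in the same lines. All 10 were above the median over all features, which was 0.64 in UFM1-KO, 0.61 in UFSP2-KO and 0.63 in WT. The ratio sets a fraction against whole cells, so that an entry translated in the cytosol has a low value by construction.

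**Figure D2:**
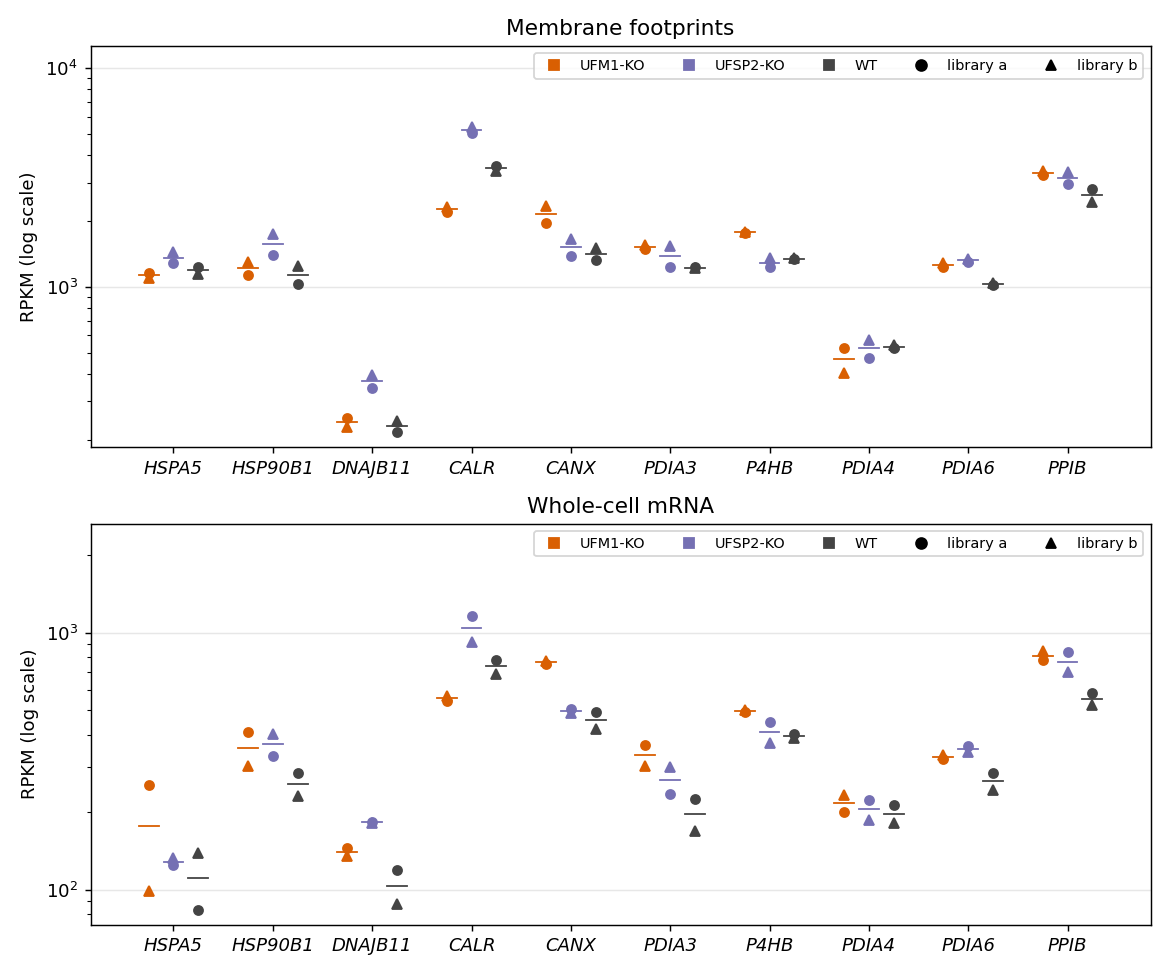
Levels of the 10 genes in each library, as RPKM on a log axis, for membrane footprints (top) and whole-cell mRNA (bottom); circles are library a, triangles library b and short lines the mean of both, with UFM1-KO left, UFSP2-KO in the middle and WT right for each gene. CALR was at 2265 RPKM of membrane footprints in UFM1-KO, 5229 in UFSP2-KO and 3483 in WT, while the HSPA5 mRNA libraries of UFM1-KO lay 2.58-fold apart.

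In the main edgeR fits, over all libraries of footprints or of mRNA, the BiP system showed 1 called change against WT, in the mRNA of its co-chaperone. DNAJB11 mRNA was at 148 and 138 CPM in UFM1-KO, 186 and 185 CPM in UFSP2-KO, against 122 and 89.2 CPM in WT (libraries a and b). Both knockout lines were above both WT libraries. It rose in UFSP2-KO over WT by a log2 change of 0.82 ± 0.21 (SE; edgeR adjusted p = 0.0281), the only one of the 10 genes called in that comparison, in which 7.19% of all features were called. The change was 0.44 ± 0.21 in UFM1-KO over WT (edgeR adjusted p = 0.314). The call rested on single libraries: the adjusted p was 0.319 without WT library b, 0.0642 without UFSP2-KO library b and 0.0525 with scaling by library size only.

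DNAJB11 footprints at the membrane stood at 254 and 233 CPM in UFM1-KO, 348 and 403 CPM in UFSP2-KO, against 221 and 248 CPM in WT. Both UFSP2-KO libraries were above those of the other lines, which overlapped. The log2 change of UFSP2-KO over WT was 0.68 ± 0.27 (edgeR adjusted p = 0.103) and that of UFM1-KO over UFSP2-KO was -0.62 ± 0.27 (edgeR adjusted p = 0.0966), and neither passed the threshold. Fits on only the groups compared called both (edgeR adjusted p = 0.0016 and 0.0027), and DESeq2 called neither.

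HSPA5 itself, the standard marker of the unfolded protein response, was not called by the main fits in any comparison between lines. Its mRNA was at 484 and 187 CPM in UFM1-KO, 237 and 253 CPM in UFSP2-KO, against 159 and 264 CPM in WT. The 3 lines overlapped, with UFM1-KO library a standing above all the others. The log2 change was 0.67 in UFM1-KO over WT (95% interval -0.03 to 1.37, edgeR adjusted p = 0.331) and 0.21 in UFSP2-KO over WT (-0.48 to 0.91, adjusted p = 0.736). Without UFM1-KO library b the mRNA change of UFM1-KO over WT was 1.20, so its size turned on a single library.

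BiP footprints varied less: they were at 2200 and 2094 CPM in UFM1-KO, 2439 and 2740 CPM in UFSP2-KO, against 2337 and 2188 CPM in WT. The UFM1-KO libraries lay 1.05-fold apart in footprints and 2.58-fold apart in mRNA. The log2 change in membrane footprints was -0.08 in UFM1-KO over WT (95% interval -0.63 to 0.48, edgeR adjusted p = 0.957) and 0.20 in UFSP2-KO over WT (-0.36 to 0.75, adjusted p = 0.697).

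HSP90B1 mRNA was at 965 and 713 CPM in UFM1-KO, 781 and 947 CPM in UFSP2-KO, against 670 and 544 CPM in WT. The knockout libraries were all above those of WT, by log2 changes of 0.47 ± 0.21 in UFM1-KO (edgeR adjusted p = 0.285) and 0.51 ± 0.21 in UFSP2-KO (adjusted p = 0.15). Its membrane footprints were at 2664 and 3050 CPM in UFM1-KO, 3285 and 4097 CPM in UFSP2-KO, against 2423 and 2914 CPM in WT. UFM1-KO overlapped WT there and UFSP2-KO did not, with log2 changes over WT of 0.10 ± 0.24 and 0.47 ± 0.24 that did not pass the test (edgeR adjusted p = 0.937 and 0.221). A fit on only the groups compared called the UFSP2-KO change (edgeR adjusted p = 0.0089), and DESeq2 did not.

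In the main fits the lectins were the genes called between the knockout lines, in opposite directions, CALR in both assays and CANX in mRNA only. CALR footprints at the membrane stood at 2621 and 2773 CPM in UFM1-KO, 6038 and 6416 CPM in UFSP2-KO, against 4264 and 4032 CPM in WT. The lines did not overlap, with WT between the knockouts. Of all features, 44.8% had no overlap between UFM1-KO and WT, 58.7% between UFSP2-KO and WT and 64.0% between the knockouts. CALR fell in UFM1-KO relative to UFSP2-KO by 1.21 on the log2 scale (SE 0.27, edgeR adjusted p = 0.0023), to 0.433 of the UFSP2-KO level. It was the only one of the 10 genes called there, where 21.4% of all features were called, and DESeq2 did not call it (adjusted p = 0.249, with a log2 change of -1.26). Against WT, neither knockout passed in the main fit: the log2 change was -0.62 ± 0.27 in UFM1-KO (edgeR adjusted p = 0.37) and 0.59 ± 0.27 in UFSP2-KO (adjusted p = 0.17). Fits on only the groups compared called both, at -0.67 (edgeR adjusted p = 0.00066) and 0.57 (adjusted p = 0.00024), and DESeq2 called neither.

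CALR mRNA was at 649 and 678 CPM in UFM1-KO, 1388 and 1093 CPM in UFSP2-KO, against 938 and 826 CPM in WT. The order of the lines was that of the footprints, and again no libraries of different lines overlapped. In mRNA that held for 48.8% of all features between UFM1-KO and WT, 53.4% between UFSP2-KO and WT and 58.2% between the knockouts. CALR mRNA fell in UFM1-KO relative to UFSP2-KO by 0.90 on the log2 scale (SE 0.20, edgeR adjusted p = 0.00558), and 16% of all features were called in that comparison. Without UFSP2-KO library a the change was -0.72 and missed the threshold (adjusted p = 0.054). Over WT the mRNA changes were -0.41 ± 0.20 in UFM1-KO (edgeR adjusted p = 0.313) and 0.49 ± 0.20 in UFSP2-KO (adjusted p = 0.135).

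CANX went the other way. CANX mRNA was at 1302 and 1330 CPM in UFM1-KO, 864 and 833 CPM in UFSP2-KO, against 847 and 722 CPM in WT. UFM1-KO stood above both other lines, which overlapped. CANX mRNA rose in UFM1-KO relative to UFSP2-KO by 0.63 ± 0.19 on the log2 scale (edgeR adjusted p = 0.0309), and the change of UFM1-KO over WT, 0.75 ± 0.19, lay just outside the threshold (adjusted p = 0.0524). The call was lost with any of the 4 libraries left out (adjusted p 0.0962 to 0.113), with log2 changes of 0.61 to 0.66.

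CANX footprints were at 3348 and 4041 CPM in UFM1-KO, 2374 and 2851 CPM in UFSP2-KO, against 2287 and 2585 CPM in WT. Here too UFM1-KO was above the other lines without passing the test, with log2 changes of 0.60 ± 0.28 over WT (edgeR adjusted p = 0.426) and 0.50 ± 0.28 over UFSP2-KO (adjusted p = 0.219). Fits on only the groups compared called both (edgeR adjusted p = 0.0077 and 0.0102), and DESeq2 called neither. The CANX values are those of a feature of 3 transcript entries with identical counts, which the files do not separate.

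Set against each other per length, calreticulin and calnexin footprints were near parity in UFM1-KO, with CALR to CANX ratios of 1.13 and 0.99, against 3.66 and 3.24 in UFSP2-KO and 2.69 and 2.25 in WT. In mRNA the ratios were 0.72 and 0.73 in UFM1-KO, 2.31 and 1.89 in UFSP2-KO, against 1.59 and 1.65 in WT. The ratios of the 3 lines did not overlap in either assay. The pair was chosen for a ratio after its values were seen, so these are a description with no test.

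**Figure D3:**
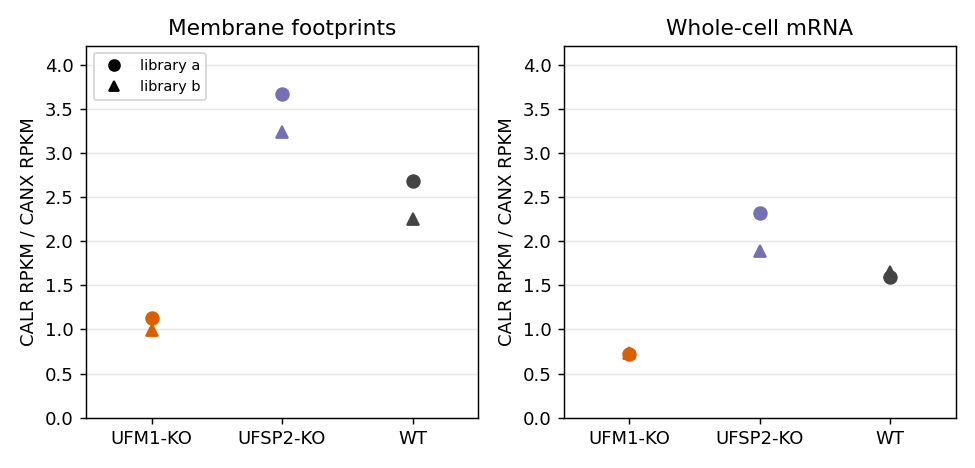
Ratio of CALR to CANX RPKM in each library, for membrane footprints (left) and whole-cell mRNA (right), with UFM1-KO, UFSP2-KO and WT along the horizontal axis; circles are library a and triangles library b. UFM1-KO lies lowest in both assays, at 1.13 and 0.99 in footprints and 0.72 and 0.73 in mRNA.

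The main edgeR fits called no disulfide isomerase in any comparison between lines. PDIA3 came closest: its mRNA was at 534 and 441 CPM in UFM1-KO, 344 and 438 CPM in UFSP2-KO, against 327 and 246 CPM in WT. All knockout libraries were above those of WT. The log2 change was 0.77 ± 0.21 in UFM1-KO (edgeR adjusted p = 0.0799) and 0.45 ± 0.21 in UFSP2-KO (adjusted p = 0.21). The UFM1-KO change was called by DESeq2 (adjusted p = 0.0287) and by an edgeR fit on only the groups compared (adjusted p = 0.037). Its membrane footprints were at 2178 and 2268 CPM in UFM1-KO, 1795 and 2241 CPM in UFSP2-KO, against 1788 and 1779 CPM in WT, with changes over WT of 0.32 ± 0.27 and 0.18 ± 0.27 in the knockouts. PDIA3 and HSP90B1 are known to have processed pseudogenes, and how reads shared with those were counted is not given in the sources used here.

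P4HB, PDIA6 and PDIA4 had smaller mRNA changes over WT than PDIA3. P4HB mRNA was at 719 and 732 CPM in UFM1-KO, 659 and 545 CPM in UFSP2-KO, against 594 and 573 CPM in WT, and its membrane footprints at 2590 and 2611 CPM in UFM1-KO, 1803 and 1979 CPM in UFSP2-KO, against 1965 and 1974 CPM in WT. UFM1-KO was above the other lines in both assays, by 0.40 ± 0.29 over WT in footprints (log2; edgeR adjusted p = 0.672); over UFSP2-KO a fit on only the groups compared called its footprints (adjusted p = 0.0132). PDIA6 mRNA was at 406 and 421 CPM in UFM1-KO, 457 and 434 CPM in UFSP2-KO, against 358 and 307 CPM in WT. Its membrane footprints were at 1555 and 1614 CPM in UFM1-KO, 1632 and 1697 CPM in UFSP2-KO, against 1283 and 1310 CPM in WT. Both knockouts were thus above WT in both assays without passing the test, the largest of these changes being 0.42 ± 0.19 in UFSP2-KO mRNA (log2, edgeR adjusted p = 0.185). A fit on only the groups compared called PDIA6 footprints in UFSP2-KO over WT (edgeR adjusted p = 0.0423), and DESeq2 did not.

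PDIA4 overlapped between all lines. Its mRNA was at 377 and 438 CPM in UFM1-KO, 419 and 351 CPM in UFSP2-KO, against 399 and 340 CPM in WT, and its membrane footprints at 989 and 761 CPM in UFM1-KO, 889 and 1075 CPM in UFSP2-KO, against 984 and 1017 CPM in WT. The interval of its mRNA log2 change was -0.28 to 0.56 in UFM1-KO over WT and -0.36 to 0.48 in UFSP2-KO over WT.

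PPIB, the prolyl isomerase, had mRNA at 461 and 499 CPM in UFM1-KO, 496 and 416 CPM in UFSP2-KO, against 344 and 310 CPM in WT. Both knockouts were above WT. The log2 changes were 0.56 ± 0.19 in UFM1-KO (edgeR adjusted p = 0.159) and 0.48 ± 0.19 in UFSP2-KO (adjusted p = 0.139). Its membrane footprints were at 1912 and 2001 CPM in UFM1-KO, 1746 and 1968 CPM in UFSP2-KO, against 1655 and 1431 CPM in WT, with log2 changes of 0.34 ± 0.23 and 0.27 ± 0.23 over WT that did not pass the test.

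**Figure D4:**
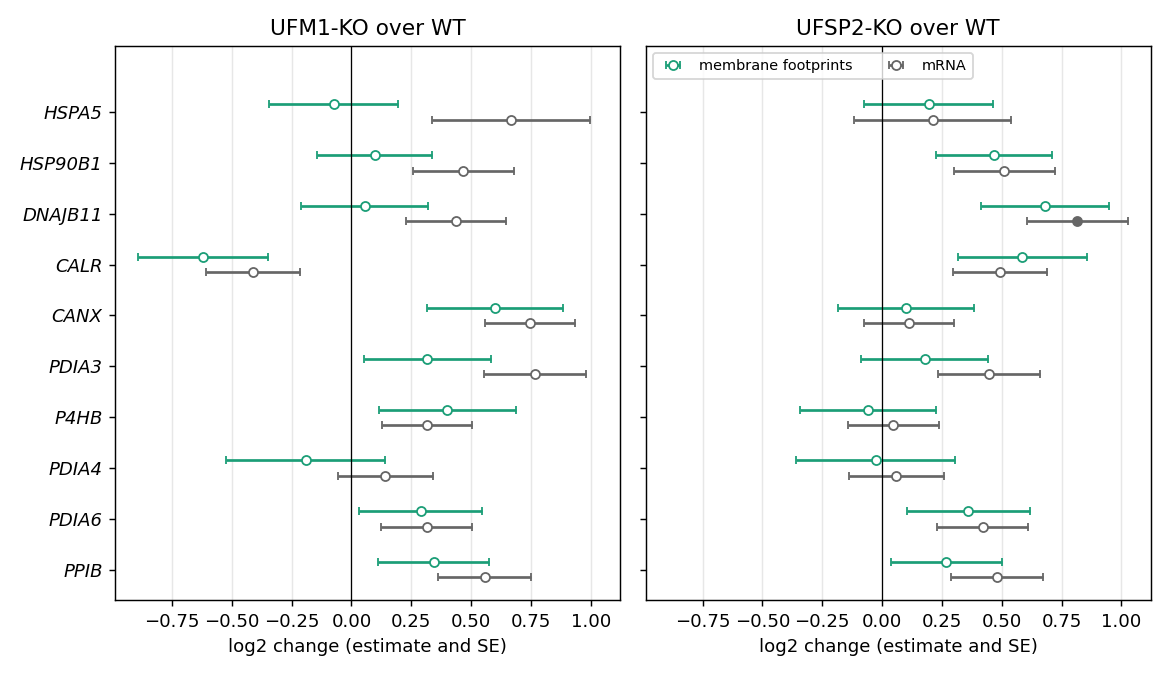
Log2 change of each gene over WT in UFM1-KO (left) and UFSP2-KO (right), for membrane footprints and whole-cell mRNA; points are edgeR estimates, bars are SE, and a filled point passed the adjusted threshold. The filled point is DNAJB11 mRNA in UFSP2-KO at 0.82; CALR lies below 0 in UFM1-KO (-0.62 in footprints) and above it in UFSP2-KO (0.59).

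Counted over the group, mRNA changes over WT were mostly positive and mostly below what the test could call. In UFM1-KO mRNA 9 of the 10 log2 changes were above 0 and CALR was below, the median was 0.45 against -0.01 over all features, and 0 genes were called, against 1.97% of all features; 4 of the 10 had an unadjusted p under 0.05, against 16.2% of all features. DESeq2 called CANX and PDIA3 there, against 3.94% of all features. In UFSP2-KO mRNA all 10 were above 0, with a median of 0.43 against -0.01 over all features, from 0.05 for P4HB to 0.82 for DNAJB11. With scaling by library size only, 7 of the 10 were above 0 and CANX, P4HB and PDIA4 were below, with the median over all features at -0.14. With TMM scaling 1 gene was called, against 7.19% of all features, and 5 of the 10 had an unadjusted p under 0.05, against 24.7%. In UFM1-KO over UFSP2-KO mRNA, CALR and CANX were the 2 genes called, against 16% of all features. There 6 genes were above 0 and 4 below, with a median of 0.08 against 0.01 over all features. By library size only HSP90B1 moved to the positive side. Libraries of UFM1-KO lay wholly above those of WT for 7 genes and wholly below for CALR, against 22.6% and 26.2% of all features; those of UFSP2-KO lay wholly above WT for 6 genes and wholly below for 0, against 24.6% and 28.9%. Both comparisons use the same WT libraries, so their directions are not independent, and in these bulk lysates a change in the share of cells that express a gene and one in RNA per cell cannot be told apart.

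As shares of the mRNA counts kept for the fit, the 10 genes took 0.585% ± 0.041 in UFM1-KO, 0.538% ± 0.002 in UFSP2-KO and 0.469% ± 0.030 in WT (SD, n = 2). The counts kept were those of merged entries that matched a footprint entry and passed the filter. They came to 13553876 to 25009344 per library, fewer than the deposited totals. The 4 disulfide isomerases took 0.205% ± 0.003 in UFM1-KO, 0.173% ± 0.001 in UFSP2-KO and 0.164% ± 0.012 in WT. Both UFM1-KO libraries were above the others in this share, and UFSP2-KO overlapped with WT. The lectins together took 0.199% ± 0.001 in UFM1-KO, 0.198% ± 0.014 in UFSP2-KO and 0.174% ± 0.014 in WT, and the means of the knockout lines differed by less than the spread of UFSP2-KO.

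In membrane footprints, 0 genes were called in UFM1-KO over WT, against 1.26% of all features, and 0 in UFSP2-KO over WT, against 11.1%; 2 of the 10 had an unadjusted p under 0.05 in each, CALR and CANX in UFM1-KO, where 11.2% of all features had, and CALR and DNAJB11 in UFSP2-KO, where 25.6% had. DESeq2 called 0 in both, and a fit on only the groups compared called 2 in UFM1-KO and 4 in UFSP2-KO, against 4.15% and 20.5% of all features. The group's medians were 0.19, with 7 genes above 0, and 0.23, with 8 above 0, against medians over all features of 0.05 and 0.01. Libraries of UFM1-KO lay wholly above those of WT for 5 genes and wholly below for CALR, against 25.3% and 19.4% of all features, and those of UFSP2-KO lay wholly above for 7 and wholly below for 0, against 29.7% and 29.0%. Between the knockouts the median was -0.12, against 0.05 over all features. UFM1-KO lay wholly below UFSP2-KO for 5 genes, HSPA5, HSP90B1, DNAJB11, CALR and PDIA6, and wholly above for CANX and P4HB, against 30.3% and 33.8% of all features.

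The change in membrane footprints was then set against the change in mRNA in 1 model over both assays. In UFM1-KO over WT, 0 of the 10 genes and 0% of all 12619 features were called, and 0 of the 10 had an unadjusted p under 0.05, against 555 of all features. For 9 of the 10 the footprint change was below the mRNA change. The median over the 10 genes was -0.29 on the log2 scale, against 0.03 over all features. HSPA5 had the lowest value, -0.76 (95% interval -1.75 to 0.24), and P4HB the only positive one, 0.07, joined by PDIA6 with scaling by library size only. In UFSP2-KO over WT, 0 of the 10 were called, against 0.0713% of all features, and 0 had an unadjusted p under 0.05, against 8.65%. The values ran from -0.26 for PDIA3 to 0.10 for CALR with a median of -0.07, against -0.01 over all features. With scaling by library size only these medians were 0.01 and 0.06. For CALR the footprint change less the mRNA change was -0.23 (-1.04 to 0.58) in UFM1-KO and 0.10 (-0.71 to 0.91) in UFSP2-KO.

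Within the group, genes varied together over the libraries to different degrees. Over the 6 mRNA libraries the Pearson correlation of log2 CPM had a median of 0.45 over the 45 pairs of genes, and 40 pairs were above 0. The most alike were DNAJB11 and PDIA6 (r = 0.96), PPIB was most like PDIA6 (0.91), CANX most like P4HB (0.89), PDIA3 most like HSP90B1 (0.88), and the least alike were CALR and CANX (-0.66). CALR was the least alike partner of 5 of the other genes. HSPA5, whose mRNA replicates lay far apart, reached at most 0.52, with HSP90B1.

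Over the 6 membrane libraries the median was 0.34 and 31 pairs were above 0. CANX and P4HB were again most alike (0.91), followed by HSP90B1 and DNAJB11 (0.89), HSPA5 and CALR (0.87) and PDIA3 and PPIB (0.87), and CALR and P4HB were least alike (-0.90). The libraries behind each value come from 3 lines and the CPM of a library share 1 scaling, so these correlations describe the 6 libraries and carry no p.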

How the data were processed

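Footprint and mRNA libraries of HEK293 lines were analysed from the authors' deposited tables of raw counts per Ensembl transcript, 1 table per library with no header. The submitters' processing notes name TopHat2 2.1.1 as the aligner and GRCh38 as the build; which program counted the reads, and on which annotation, is not given in the sources used here. Column 2 of the deposited tables, whose values are the members' protein lengths less a fixed trim, was read as coding length in codons. Entries with identical counts in all libraries of an assay were merged, since reads shared by isoforms appear under each: 21223 footprint entries with a count became 14377 features, and 21963 mRNA entries that matched a footprint entry by ID and length became 15431. CANX stands for 3 such entries and DNAJB11 for 2. Isoforms that share only part of their reads stay separate features.

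Counts were tested in R 4.3.3 with edgeR 4.0.16 (filterByExpr with a minimum count of 10, TMM factors, glmQLFit and glmQLFTest, two-sided, 1 coefficient per group), over 12 footprint libraries, 6 mRNA libraries or all 18, with TMM within each assay. Adjusted p-values are Benjamini-Hochberg over all features, 11065, 13889 and 12619 in the models, with a threshold of 0.05. SE is the log2 change over the root of F, and 95% intervals use its t quantile. CPM and RPKM were computed from merged totals and TMM factors; intervals of ratios of summed counts are exact binomial, and those and limits for 0 counts (3 counts) cover counting error only. DESeq2 1.42.0, other scalings, filters and fits were alternatives. The fit was run on simulated data in which all groups shared 1 profile of levels apart from planted changes. Those data lacked the contrast between the fractions, so they do not test the spread shared by membrane and cytosolic libraries. No 2 libraries held identical values.

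The genes and lists were chosen with earlier results of these data known. Every member is named, with those called in a comparison in full. Lists of other folding genes, of markers of the fractions and of the knockout targets were not tested, because no table used here pairs their transcripts with symbols; member symbols come from the definition of the group. Promoter sequences are from RefSeq on GRCh38.p14. The letters a and b were not treated as pairs.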

Additional observations from a re-analysis of the deposited data

Results flagged for a closer look

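The test of UFM1-KO over UFSP2-KO, in which the shared WT libraries cancel, called 2 lectins, CALR in both assays and CANX in mRNA only. That test called 1 of the 10 genes in membrane footprints, against 21.4% of all features, and 2 in mRNA, against 16%. CALR differed by -1.21 on the log2 scale in membrane footprints, which DESeq2 did not call (adjusted p = 0.249), and by -0.90 in mRNA, which missed the threshold without UFSP2-KO library a (edgeR adjusted p = 0.054). CANX differed by 0.63 in mRNA, a call lost with any of the 4 libraries left out and with the replicate block (edgeR adjusted p = 0.0755). In membrane footprints CANX differed by 0.50 and was not called (edgeR adjusted p = 0.219). Each knockout was 1 clonal line, so that the knocked-out gene and the clone cannot be told apart in these differences.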

How the results depend on the processing

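All 10 genes were called higher in the membrane fraction in each line under every alternative, and 0 were called in the change of that ratio or in footprint change less mRNA change. Of 377 values of single members that the main fit called, 367 kept their direction and their side of the threshold, 10 lost the call and 0 changed direction. Most of the 377 were membrane over cytosol ratios, none of which lost the call. The 10 losses were all among the calls of CALR, CANX and DNAJB11 between lines. With scaling by library size only, 0 members and 8.09% of all features were called in UFSP2-KO over WT mRNA, against 1 and 7.19% in the main fit. In UFM1-KO over WT mRNA, where the main fit called 0, 1 was called without a filter, against 2.48% of all features. With every transcript entry kept separate 1 was called, against 2.14%. DESeq2 called 2 there, against 3.94%, and the fit with only the groups compared called 2, against 4.24%. DESeq2 called 0 members and 11.5% of all features in UFM1-KO over UFSP2-KO membrane footprints, against 1 and 21.4% in the main fit. With only the groups compared, membrane footprints gave 2 called in UFM1-KO over WT, 4 in UFSP2-KO over WT and 5 in UFM1-KO over UFSP2-KO, against 4.15%, 20.5% and 30.6% of all features; the cause was not tested. Leaving out 1 library changed which members were called in the cytosolic comparisons of both knockouts with WT, in fits where a group held a single library. It also changed which members were called in every mRNA comparison between lines, and in no membrane footprint comparison between lines.

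With the letter as a replicate block, 2 members were called in UFSP2-KO over WT membrane footprints, 2 in UFM1-KO over UFSP2-KO membrane footprints and 1 in UFM1-KO over UFSP2-KO mRNA, against 16.4%, 27.3% and 13.7% of all features. The membrane calls were CALR and DNAJB11 in both, and in mRNA CANX had an adjusted p of 0.0755. The labels give the letters no meaning and each comparison has only 2 letters, so they were not treated as pairs. Deviations of same-lettered libraries correlated at 0.153 to 0.156 between membrane groups, at 0.18 to 0.29 between cytosolic groups, above 0 in all 15 pairs of footprint groups, and at 0.06, -0.22 and -0.68 between mRNA groups. With UFSP2-KO mRNA letters exchanged, the crossed pairing called 1 member in UFSP2-KO over WT and 2 in UFM1-KO over UFSP2-KO, against 15.8% and 25.6% of all features.

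Library size only moved the median over all features by -0.29, -0.19 and -0.14 in membrane over cytosol (UFM1-KO, UFSP2-KO, WT), by 0.14 in cytosolic UFM1-KO over WT and by -0.14 in UFSP2-KO over WT mRNA. The share of calls that were higher was then 55.2%, 54.8%, 56.5%, 46% and 15.4%, against 79.7%, 67.1%, 67.5%, 19.1% and 33.2% with TMM. A member had at most 74 counts in a cytosolic library, and the share of the 10 genes was 0.0190% (exact 95% interval 0.0163% to 0.0220%) in WT cytosolic library a and 0.00508% (0.00443% to 0.0058%) in the deeper library b, a gap beyond counting error.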
